A study of Mus musculus with 12 samples.

Results

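The 8 germ cell forms of broadly used genes, Slc25a31, Taf7l, Rpl39l, Tuba3b, Nxf3, Nxf2, Pgk2 and Ldhc, were followed through the loss of Ronin in mouse embryonic stem cells. These are 8 of the 18194 genes measured. They were chosen by name with the knockout-against-control differences of these same arrays already known, the day 6 rises of Slc25a31 and Taf7l among them, so those differences are given here as a description with no p-value and support nothing by themselves. A gene was taken from the probe sets whose annotation names that symbol alone, which gave 9 probe sets. Ldhc had 2 of them and the other genes 1 each, and the brighter one stands for Ldhc. Their expression in testis was not measured here.

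Many housekeeping proteins have a second copy whose gene is used mainly in germ cells, often a gene copied back from RNA or placed away from the X chromosome, which is silenced during male meiosis. In somatic cells and in embryonic stem cells such germ cell genes are held down by DNA methylation and by a Polycomb complex that contains E2F6, MGA, MAX and PCGF6. MGA and MAX recognise the letters CACGTG, called an E-box. Ronin, the product of Thap11, is a zinc finger protein that works with the cofactor Hcfc1 at promoters of housekeeping genes.

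All cells were embryonic stem cells of genotype Roninflox/flox, in which Cre can remove Thap11. The knockout cells also carried Ert2CRE, a Cre made active by tamoxifen, and the control cells did not. Tamoxifen was given to both at 0.25 µM, with a split on day 4, and cells were taken on days 1.5, 3 and 6. This makes 6 groups with 2 arrays per group. Only the knockout cells had Ert2CRE, so an effect of Ert2CRE itself and the loss of Thap11 cannot be told apart. The labels name no strain, no clone and no number of independent lines.

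The arrays resembled each other closely, and the deletion was seen on each day. Within the groups, r between the log2 values of both arrays was 0.99816 to 0.99856. Thap11 stood at 1222 in controls and 341 in knockout cells on day 1.5, at 1284 and 101 on day 3, and at 1344 and 51.1 on day 6. The log2 differences were -1.84, -3.67 and -4.72 (SE 0.083 each, limma adjusted p = 1.2e-05, 1.4e-07 and 1.4e-08). The summed intensity of 10 embryonic stem cell markers lay between 76850 and 81000 over the 12 arrays, a sum to which Dppa5a alone gave 24171 to 25605 as group means. On day 6, 1 of the 10 was called higher and 2 lower, beside 17.2% and 15.3% of all genes. Klf4, a gene named after its values were seen, was lower on each day (-0.42, -0.40 and -0.44, limma adjusted p = 0.0011, 0.00034 and 0.00012). All arrays of day 3 had medians of 44.36 to 44.72, against 42.37 to 43.04 on the other days, and the controls of day 3 stood apart from those of days 1.5 and 6. In the controls 27.3% of genes were called between days 1.5 and 3 and 27.5% between days 3 and 6, but 1.57% between days 1.5 and 6, at a limma adjusted p under 0.05. Day 3 differences are therefore also given below against the controls of the other days.

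Promoter sequences of RefSeq, build GRCm38.p6, were at hand for 7 of the 8 genes, with Nxf3 missing. The bases before the outermost annotated start are shown for the 4 genes that stood higher in knockout cells on day 6, 5′ to 3′ on the gene's strand. They are chr3:40708621-40708870 (plus strand) for Slc25a31, chrX:134476506-134476740 (minus strand) for Taf7l, chrX:134964755-134965004 (minus strand) for Nxf2 and chr16:10169978-10170196 (plus strand) for Rpl39l. Capitals mark CACGTG.

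Slc25a31: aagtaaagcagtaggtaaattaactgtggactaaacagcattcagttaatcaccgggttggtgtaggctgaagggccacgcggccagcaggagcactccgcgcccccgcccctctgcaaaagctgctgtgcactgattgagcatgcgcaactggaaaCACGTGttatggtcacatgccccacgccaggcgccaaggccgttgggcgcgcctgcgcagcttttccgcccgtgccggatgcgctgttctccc

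Taf7l: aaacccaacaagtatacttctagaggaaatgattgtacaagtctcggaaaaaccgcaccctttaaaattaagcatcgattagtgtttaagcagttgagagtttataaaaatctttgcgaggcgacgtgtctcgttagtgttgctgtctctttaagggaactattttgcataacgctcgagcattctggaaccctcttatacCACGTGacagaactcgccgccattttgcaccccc

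Nxf2: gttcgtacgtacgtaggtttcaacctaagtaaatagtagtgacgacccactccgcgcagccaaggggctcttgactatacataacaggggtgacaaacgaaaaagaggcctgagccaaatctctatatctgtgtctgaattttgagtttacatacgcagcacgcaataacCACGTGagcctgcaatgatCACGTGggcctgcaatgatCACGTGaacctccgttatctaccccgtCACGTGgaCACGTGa

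Rpl39l: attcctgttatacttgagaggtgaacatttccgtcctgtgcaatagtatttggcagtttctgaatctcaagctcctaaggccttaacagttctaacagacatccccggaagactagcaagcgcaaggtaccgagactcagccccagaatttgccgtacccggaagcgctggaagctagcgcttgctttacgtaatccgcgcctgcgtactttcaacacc

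Slc25a31 held 1 E-box, whose first base lay 93 bases before the start, and Taf7l held 1 at 34 bases before it. Nxf2 held 5, at 80, 61, 42, 15 and 7 bases before its start, of which the 3 farthest from the start sit in a repeated stretch. The windows of Rpl39l, Tuba3b, Pgk2 and Ldhc had none, and neither had a second annotated start of Nxf2. CACGTG, which reads the same on both strands, was present in 2349 of all 32851 promoter windows of 250 bases before and 50 after a start, or 7.15%. Windows with 3 or more made up 0.088%. The letters TCCCGCC, an E2F site searched on both strands and present in 11.34% of windows, occurred once each in Slc25a31 and Tuba3b. ACAANTCCC, part of the sequence known for Ronin and present in 1.99% of windows, occurred in none of the members' windows. Such matches describe the letters only. Among the broadly expressed relatives 2 of 12 genes with a promoter sequence held CACGTG, namely Ldha and Tuba8, and among other germ cell forms 3 of 33. These counts take a gene with a match in any of its windows, whereas 7.15% is a share of single windows. The windows of the 4 genes shown had 22 (Slc25a31), 20 (Nxf2), 17 (Taf7l) and 17 (Rpl39l) CpG dinucleotides. Those of Tuba3b had 16, of Ldhc 9 or 3 depending on the start, and of Pgk2 4, where the median of all windows was 7 with quartiles of 3 and 20.

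On day 6, 4 of the 8 germ cell forms were called higher in knockout cells and 2 lower, at an adjusted p under 0.05 over all genes. The same call was made for 17.2% of all genes upward, 15.3% downward and 32.5% in either direction. On day 3 it was made for 4 of 8, all higher (13.3% of all genes higher, 10.0% lower, 23.4% in all). On day 1.5 it was made for 2 of 8, Rpl39l higher and Nxf3 lower (5.93%, 3.98% and 9.91% of all genes). Median log2 differences of the 8 were -0.13, 0.28 and 0.53 on the 3 days, beside 0.0028, 0.028 and -0.0013 over all genes. Since the genes were chosen from this contrast, nothing is read from these shares. The single genes took different courses.

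**Figure D1:**
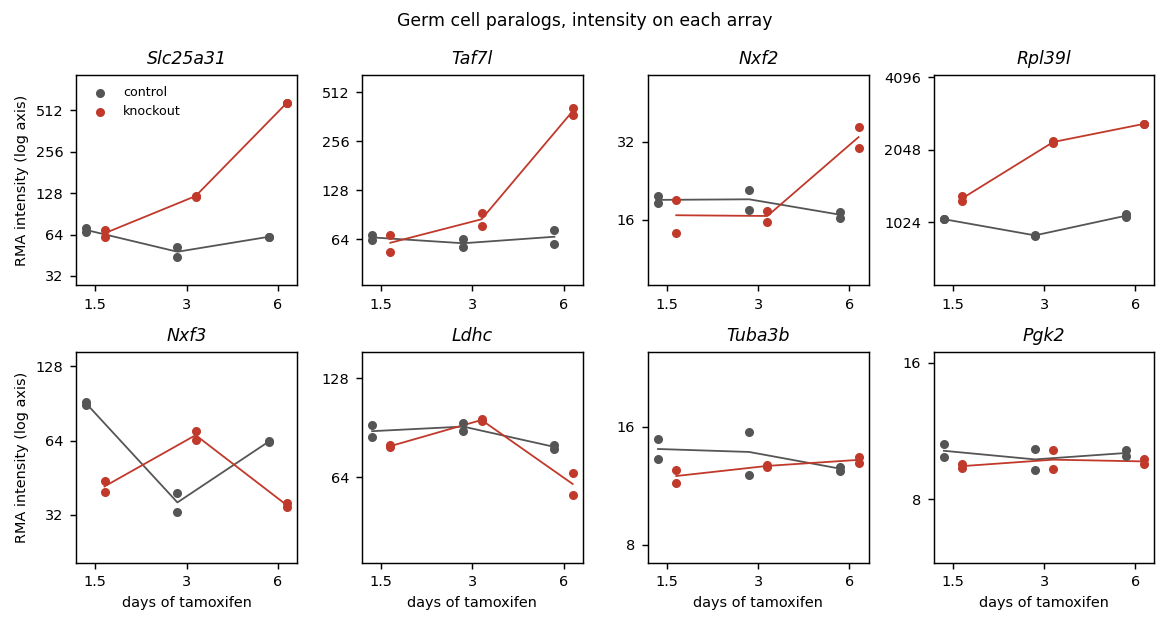
Intensity on each array (points, log axis, a scale of its own in each panel) for the 8 germ cell forms, by day of tamoxifen (days evenly spaced), with lines through the means of 2 arrays, grey for control and red for knockout. Slc25a31, Taf7l and Nxf2 reach their highest values in knockout cells of day 6, Rpl39l is already high on day 3, and Nxf3 moves in controls as much as between genotypes.

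Slc25a31 encodes an ADP/ATP carrier of the inner mitochondrial membrane that serves male germ cells. In controls its probe set (1453133_at) read 71.4 and 66.8 on day 1.5, 43.7 and 52.2 on day 3, and 61.7 and 61.4 on day 6. In knockout cells it read 69.1 and 61.5 on day 1.5, 123 and 121 on day 3, and 584 and 577 on day 6. The genotypes overlapped on day 1.5 and lay apart on both later days, and the day 6 knockout arrays were the highest of all. The log2 differences were -0.08, 1.35 and 3.24 (SE 0.088), the last a ratio of 9.43. Against the controls of days 1.5 and 6 the day 3 value was 0.90. Within knockout cells the level rose by 0.90 from day 1.5 to day 3 and by 2.25 from day 3 to day 6. From low to high, the day 3 controls came first, then the day 6 controls, the day 1.5 knockout cells and the day 1.5 controls, with overlap between each of these 3 and its neighbour, and then the knockout cells of days 3 and 6.

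Taf7l encodes a germ cell form of TAF7, a subunit of the general transcription factor TFIID. Its probe set (1420433_at) read 63.1 and 68.3 in controls of day 1.5, 63.8 and 57.1 on day 3, and 60.1 and 72.4 on day 6. Knockout cells read 68.4 and 53.3, then 76.9 and 92.8, then 411 and 373. All arrays apart from knockout day 3 and day 6 lay between 53.3 and 72.4, and the groups there overlapped. The log2 differences were -0.12, 0.49 and 2.57 (SE 0.14), with a ratio of 5.93 on day 6. The step within knockout cells was 0.48 between days 1.5 and 3 and 2.21 between days 3 and 6. The day 3 call for Taf7l was lost with 5 of the 12 arrays left out in turn, with the replicate block (0.49) and against the controls of days 1.5 and 6 (0.36).

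Nxf2 encodes a germ cell relative of the mRNA export receptor NXF1. Its probe set (1420585_a_at) was dim, with 19.7 and 18.5, 17.5 and 20.9, and 16.3 and 17.2 in controls of the 3 days. In knockout cells it read 14.3 and 19.0 on day 1.5, 15.7 and 17.4 on day 3, and 30.3 and 36.5 on day 6. Only the last pair lay above every other array. The log2 differences were -0.21, -0.21 and 0.99 (SE 0.15), or a ratio of 1.99 on day 6. The change within knockout cells was 0.00 from day 1.5 to day 3 and 1.01 from day 3 to day 6, so this gene was still flat on the day when Slc25a31 was already up.

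Rpl39l encodes a male germ cell form of the large ribosomal subunit protein RPL39, and here it was bright in both genotypes. Its probe set (1423327_at) read 1054 on both control arrays of day 1.5, 909 and 896 on day 3, and 1102 and 1077 on day 6. Knockout cells read 1316 and 1254, then 2233 and 2172, then 2624 and 2621. No group overlapped with another, and the order ran from the controls of days 3, 1.5 and 6 to the knockout cells of days 1.5, 3 and 6. Differences on the log2 scale were 0.29, 1.29 and 1.27 (SE 0.048), with a ratio of 2.41 on day 6. Against the controls of days 1.5 and 6 the day 3 value was 1.04. Most of its change within knockout cells came between days 1.5 and 3 (0.78), with 0.25 between days 3 and 6. The day 1.5 call was lost without the first knockout array of that day (0.25) and with only the 4 arrays of that day fitted.

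Nxf3, another member of the NXF family and X-linked like Nxf2, did not keep 1 direction. Controls of its probe set (1456035_at) read 89.1 and 91.8 on day 1.5, 39.0 and 32.7 on day 3, and 63.1 and 63.5 on day 6. Knockout cells read 43.7 and 39.7, 64.4 and 70.3, and 35.7 and 34.3. Knockout cells lay below controls on days 1.5 and 6 and above them on day 3, without overlap on any day. The log2 differences were -1.12, 0.91 and -0.86 (SE 0.088), the last a ratio of 0.552. The day 3 value rests on controls that were themselves low, and it was -0.17 against the controls of days 1.5 and 6. The lowest groups, knockout day 6 and control day 3, overlapped.

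Ldhc encodes the lactate dehydrogenase subunit of sperm. Its brighter probe set (1415847_at) read 91.9 and 84.8, 93.7 and 88.7, and 78.2 and 80.1 in controls. Knockout cells read 80.1 and 79.0, 94.8 and 96.3, and 56.3 and 65.8. The day 6 knockout arrays were the lowest of all 12, with log2 differences of -0.15, 0.07 and -0.38 (SE 0.077) on the 3 days. The other probe set (1415846_a_at), dimmer at 15.7 to 30.6, gave -0.14, -0.13 and -0.40 (SE 0.17).

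Pgk2, the phosphoglycerate kinase of sperm, and Tuba3b, an alpha-tubulin of testis, gave no call on any day. Pgk2 (1416784_at) lay between 9.30 and 10.6 on all arrays and Tuba3b (1438611_at) between 11.5 and 15.5. Their log2 differences were -0.11, 0.00 and -0.06 for Pgk2 (SE 0.070) and -0.23, -0.11 and 0.07 for Tuba3b (SE 0.11). These are among the lowest readings of the array, whose minimum was 5.51, and no detection calls were used here. Tuba3b had a further pair of probe sets that also match Tuba3a and were not used, which read 592.8 and 554.5 in day 1.5 controls. The log2 differences of this pair were -0.07 and -0.14 on day 1.5, 0.32 and 0.20 on day 3, and -0.20 and -0.42 on day 6 (SE 0.064 and 0.066). The statement of no call above does not cover this pair.

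Across the 12 arrays, Slc25a31 and Taf7l had a Pearson r of 0.973, Slc25a31 and Rpl39l of 0.891, and Taf7l and Nxf2 of 0.858. Rpl39l and Nxf2, the early and the late riser, had 0.521. These describe arrays that share their groups. Other genes were ranked by the same measure, with symbols that look like clone or model numbers left out. Among these the patterns most like Slc25a31 were those of Fermt2 (0.992), Tex16 (0.991) and Elf1 (0.989). For Taf7l they were Rbm46 (0.992), Elf1 (0.992) and Gabra4 (0.989), so Elf1 was near to both. For Rpl39l they were Naa38 (0.995), Alkbh4 (0.985) and Espl1 (0.985). The likeness was lower for Nxf2, with Tcstv1 (0.946), Tgfbi (0.940) and Nipal2 (0.928), and for Nxf3, with Ccnd1 (0.955), Apex2 (0.947) and Nkrf (0.938). Pearson r leaves out the size of a change. Between group means Ccnd1, Apex2 and Nkrf spanned 0.36, 0.51 and 0.36 log2 units, where Nxf3 spanned 1.37. Fermt2 and Tex16 spanned 1.05 and 1.08 where Slc25a31 spanned 3.6, but Naa38 spanned 1.55 beside 1.54 for Rpl39l. Ldhc, Pgk2 and Tuba3b spanned less than 1 log2 unit between groups and were not matched.

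The control cells alone give a comparison that the choice of members did not name. It shares its arrays with the differences above, so low controls of day 3 raise the day 3 differences. The members were chosen with earlier results of these data known, so its p-values are not free of that choice. Between days 1.5 and 3, 3 of 8 were called, all lower, a share near that of all genes (27.3% in either direction). Nxf3 fell by 1.34 (adjusted p = 2.1e-05, limma over all genes), Slc25a31 by 0.53 (0.0022) and Rpl39l by 0.22 (0.0086). The Rpl39l call was lost with quantile normalization (-0.14) and with only the 4 arrays compared. Between days 3 and 6 the same 3 genes were higher, beside 27.5% of all genes called in either direction, Nxf3 by 0.82 (limma adjusted p = 0.00028), Rpl39l by 0.27 (0.0035) and Slc25a31 by 0.37 (0.014). The call of Slc25a31 was lost without the first control array of day 3 (0.24) and without either control array of day 6. Between days 1.5 and 6 only Nxf3 was called (-0.51, limma adjusted p = 0.027), and that call was lost when any of its 4 arrays was left out. Thus the controls of day 3 were low in 3 of the 4 members called higher on that day, and Taf7l at 60.5 there differed less from its 65.7 on day 1.5.

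Of 13 broadly expressed relatives listed, 11 were measured, without Tuba1b and Tuba1c. On day 6, 1 was called higher and 5 lower, on day 3, 4 higher and 2 lower, and on day 1.5, 1 higher and 2 lower, with medians of -0.06, 0.00 and -0.03. The shares over all genes were 17.2% higher and 15.3% lower on day 6, 13.3% and 10.0% on day 3, and 5.93% and 3.98% on day 1.5. Differences between a germ cell form and its relative were not tested, and the values are set side by side.

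The ADP/ATP carriers Slc25a4 and Slc25a5 moved little where Slc25a31 stood 3.24 higher. On day 6 Slc25a4 was at 0.05 (SE 0.053, limma adjusted p = 0.57), after 0.23 (0.028) on day 1.5 and 0.20 (0.026) on day 3, calls lost without 3 and 4 of the 12 arrays in turn. Slc25a5 was at -0.14 on day 6 (adjusted p = 0.043), a call lost without 10 of the 12 arrays in turn, and at -0.09 and 0.00 before. Its other 7 probe sets also lay below 0 on day 6, at -0.36 to -0.18. Taf7, the TFIID subunit of most cells, rose by 0.33 on day 3 (limma adjusted p = 0.0019), which turned to -0.07 against the controls of days 1.5 and 6, and was at 0.07 on day 6 (0.36). Nxf1, the general mRNA export receptor, was at -0.03, 0.24 (limma adjusted p = 0.012) and 0.15 (0.073), and its day 3 value likewise turned to -0.02. Rpl39, the general form of the ribosomal protein, was at -0.10, -0.09 and -0.06 (SE 0.059) with no call, where Rpl39l rose on all 3 days. The probe set of Rpl39 read only 88.0 to 104 on all arrays, and whether it reports the main Rpl39 transcript was not tested.

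The glycolytic relatives fell. Ldha, the muscle-type subunit of lactate dehydrogenase, went from 8757 in controls to 6040 in knockout cells on day 6 (-0.54, limma adjusted p = 2.8e-05) after -0.07 and 0.04. Ldhb, the heart-type subunit, was at -0.20 (0.048), -0.96 (6.7e-06) and -0.48 (0.00014). Its day 3 controls stood at 6043 against 3165 and 3164 on the other days, and against these its day 3 value was -0.02, while the day 1.5 call was lost without each of the 12 arrays in turn. Pgk1, the phosphoglycerate kinase of most cells, was at -0.22 (limma adjusted p = 0.029), -0.27 (0.0057) and -0.49 (0.00011), and went from 13280 to 9434 on day 6. Its day 1.5 call was lost without any of the 4 arrays compared, and its day 3 value was -0.06 against the controls of days 1.5 and 6. On day 6 Ldhc lay below its controls together with both of its relatives, whereas Pgk2 stayed at its low reading. Of the alpha-tubulins, Tuba4a fell by 0.28 on day 6 (limma adjusted p = 0.0029). Tuba1a rose by 0.22 on day 3 (0.010) and by 0.15 on day 6 (0.041, a call lost without 10 of the 12 arrays in turn). Tuba8 was at -0.02, -0.03 and 0.11 by its brighter probe set, with no call. Its dimmer probe set was at -0.34 on day 1.5 (limma adjusted p = 0.033 over all probe sets), 0.18 on day 3 and 0.1 on day 6.

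**Figure D2:**
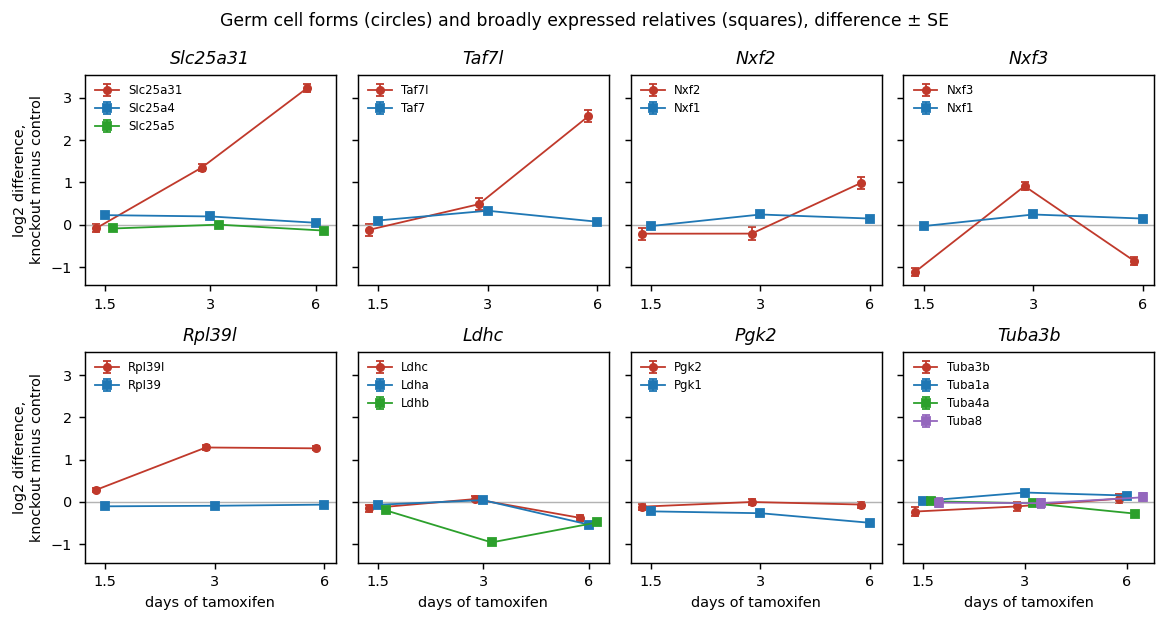
Log2 difference, knockout minus control, with its SE (bars) by day of tamoxifen for each germ cell form (red circles) and its broadly expressed relatives (squares). On day 6 Slc25a31 and Taf7l stand at 3.24 and 2.57 while Slc25a4, Slc25a5 and Taf7 lie between -0.14 and 0.07, and Ldhc at -0.38 runs near Ldha and Ldhb.

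Of 44 other germ cell forms of housekeeping genes listed, 38 were measured. On day 6, 4 were called higher and 6 lower, near the shares over all genes (17.2% higher and 15.3% lower), with a median of -0.06 and a range of -0.47 to 0.84. On day 3 there were 6 higher and 4 lower (13.3% and 10.0% of all genes), and on day 1.5, 5 higher and 1 lower (5.93% and 3.98%). Eno4, a sperm enolase, rose by 0.84 on day 6 (SE 0.17, limma adjusted p = 0.0044), with knockout arrays at 108 and 170 that differ widely. Cox7b2, a relative of a cytochrome oxidase subunit, rose by 0.75 (0.00047) and Papolb, the poly(A) polymerase of testis, by 0.62 (0.00066). Nxf7 of the NXF family fell by 0.47 (limma adjusted p = 0.0088), Ybx2, an RNA-binding protein of germ cells, by 0.37 (0.032) and the export cofactor gene Nxt2 by 0.34 (0.013). The call of Ybx2 was lost without the second control array (-0.25) or either knockout array of day 6, and that of Nxt2 without the second control (-0.27) or second knockout array (-0.32). Of the brightest without a day 6 call, Cstf2t was at 0.16 (0.055) and Cyct, the testis cytochrome c, at -0.16 (0.13). Cyct had risen by 0.50 on day 1.5 (limma adjusted p = 0.0036). Nxt2 was already at -0.66 on day 1.5 (limma adjusted p = 0.0021), from 229 in controls to 145 in knockout cells. Its means were 259 in controls and 161 in knockout cells on day 3, and 176 and 139 on day 6. Papolb was already at 0.39 on day 1.5 (limma adjusted p = 0.027), a call lost without 2 of the arrays in turn. Eno4, Cox7b2, Nxf7 and Ybx2 had no call on day 1.5. Thus the NXF family held 1 riser (Nxf2), a pair of fallers (Nxf3 and Nxf7) and Nxf1 with no call on day 6.

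**Figure D3:**
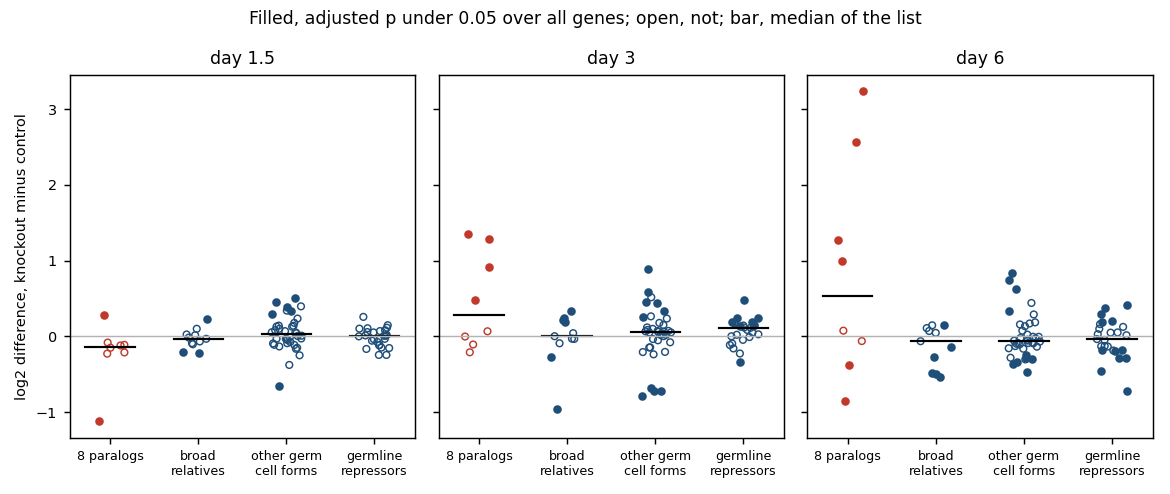
Log2 difference, knockout minus control, of each measured gene (points) on days 1.5, 3 and 6 in 4 lists, filled where limma's adjusted p was under 0.05, with a bar at the list's median. On day 6 the 8 germ cell forms spread from -0.86 to 3.24 and the 38 other germ cell forms from -0.47 to 0.84.

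A further list of 26 was made up of genes that hold germ cell genes silent, together with Tet1 and Tet2, which act in DNA demethylation. Of these 25 were measured, without Rybp, and the counts and medians include Tet1 and Tet2. On day 6, 5 of the 25 were called higher and 7 lower (median -0.04), beside 17.2% and 15.3% of all genes. On day 3 there were 7 higher and 1 lower, beside 13.3% and 10.0%. Max, which pairs with MGA at E-boxes, fell by 0.72 on day 6 (SE 0.097, limma adjusted p = 0.00045), from 326 in controls to 196. Its partner gene Mga rose by 0.42 (0.0024). The DNA methyltransferase Dnmt3a fell by 0.45 (limma adjusted p = 0.00036), and Dnmt3l, which stimulates DNA methylation, rose by 0.38 (0.00038). Dnmt3l also rose by 0.48 on day 3, which turned to -0.33 against the controls of days 1.5 and 6. E2f6 rose by 0.30 on day 6 (limma adjusted p = 0.0069) and Pcgf6 fell by 0.18 (0.026). E2f6 and Pcgf6 are named as parts of the complex described above and were chosen after their values were seen. Whether these levels bear on the members was not tested.

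A list of 12 germ cell markers held those of late male germ cells and also Ddx4 and Dazl, which germ cells use more widely. All 12 were measured, and on day 6, 2 were called higher and 1 lower, beside 17.2% and 15.3% of all genes. Tnp2, at group means of 9.14 to 10.9, read near the lowest intensity of all arrays, 5.511. Ddx4, an RNA helicase of the germ line, went from 665 to 2368 (1.83, limma adjusted p = 2.6e-07) and Dazl, a germ cell RNA-binding protein, from 208 to 1006 (2.28, 1.2e-07). Prm2, a sperm protamine, fell by 0.26 (limma adjusted p = 0.011), from 34.2 to 28.5. The 9 without a call, among them Prm1, Tnp1, Tnp2, Acrv1, Odf1, Akap4 and Acr, had differences between -0.12 and 0.19. The summed level was 3625 to 3677 in knockout arrays of day 6 and 1153 to 1158 in their controls. On day 3 it was 1399 to 1413 against 908 to 940, and on day 1.5 it was 1209 to 1213 against 1182 to 1245. The sum, carried by Ddx4 and Dazl on day 6, was above its controls on days 3 and 6, as Slc25a31 and Taf7l were, whereas Nxf2 was above them on day 6 only. Its part in their result was not tested. In whole cultures, more cells with a transcript and more transcript per cell cannot be told apart.

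Markers of other cells moved too. The summed intensity of 11 fibroblast or feeder markers on day 6 was 9226 to 9340 in knockout cells and 8050 to 8422 in controls, and on day 1.5 it was 5754 to 5881 against 7248 to 7414. On day 3 it was 6013 to 6197 in knockout cells and 6030 to 6361 in controls, which overlap. Single genes still differed, with 3 of 11 called higher and 1 lower on day 3. On day 1.5, 0 were called higher and 4 lower (5.93% and 3.98% of all genes). Fn1, most of the day 3 sum, went from 4922 to 4122, while Tagln (181 to 404), Acta2 (159 to 252) and Vim (611 to 1013) went up. Day 3 controls were above those of the other days for Fn1 and below them for Tagln, Acta2 and Vim. The list did not move as 1 on day 6, when 2 were called higher, Tagln (1214 to 1601) and Acta2 (1055 to 1601), and 3 lower, Col1a1 (71.4 to 44.0), Col1a2 (81.4 to 53.9) and Thy1 (179 to 101). The summed intensity of 10 endoderm and trophoblast markers was 1743 to 1744 against 2129 to 2153 on day 6, 2019 to 2123 against 2626 to 3096 on day 3, and 1938 to 1988 against 2080 to 2134 on day 1.5. Tfap2c made up most of this sum and was lower in knockout cells on day 3 (2450 to 1586) and day 6 (1423 to 1015). Its day 3 controls were themselves high, against 1443 in controls of day 1.5 and 1423 on day 6. The day 3 knockout cells lay above the controls of these other days. The control sum of day 3 was likewise above the control sums of the other days. On day 3, 2 of the 10 were called higher and 1 lower (median 0.08), and on day 6, 1 higher, Foxa2 (55.3 to 112), and 3 lower. The shares over all genes were 13.3% higher and 10.0% lower on day 3, and 17.2% and 15.3% on day 6. The genes named in this paragraph were chosen after their values were seen. None of these markers was at 0, but no intensity on any array was, the lowest being 5.511. Lum (group means of 10.2 to 11.9) and Col3a1 (9.12 to 12.3) read near that floor. The part of these markers in the members' results was not tested.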

How the data were processed

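RNA of 12 samples was hybridised to Affymetrix whole-genome expression arrays of mouse. The authors deposited 1 intensity for each probe set and array on a linear scale, from 5.511 to 34993. These came from RMA, which the submitters' processing notes name without a version. RMA corrects background, equalises the arrays and summarises the probes, and it compresses changes near the floor. The platform annotation gave 1 gene symbol to 34958 of 45101 probe sets, several to 932 and none to 9211. A RefSeq table (GRCm38.p6) matched 34754 by gene ID, and the build behind the probe sets is not given in the sources used here. Suffixes _x_at and _s_at, as for Eno4, Slc25a5, Tuba1a, Ldhb and Dnmt3l, mark probes shared with other transcripts.

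The log2 of each intensity was tested with limma 3.58.1 (R 4.3.3), a mean per group over 12 arrays, with eBayes (6 residual and 3.04 prior degrees of freedom) and Benjamini-Hochberg adjustment over 18194 genes, each by its brightest probe set, with no filter on dim genes. Differences are log2, knockout minus control, ± SE. The test was also run on simulated data. The labels do not name the cultures behind the arrays, so a p-value covers array-to-array spread, which may be technical, and the number of arrays limits the precision.

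The members, the gene lists and the motifs were chosen with earlier results of these data known. Named genes were all members and relatives, the up to 6 other germ cell forms and 4 repressors with the largest called day 6 change, the brightest 2 other forms, and Thap11. For each member spanning at least 1 log2 unit, the 3 most correlated genes were also named. Members and symbols that look like clone or model numbers were left out of that ranking. Alternatives were a replicate block, only the 4 arrays compared, eBayes with trend and robust prior, the mean of all probe sets, a test without the dimmest 40% of genes, median centring, quantile normalization, controls of days 1.5 and 6 for day 3, and leaving out each array. Plots used matplotlib 3.10.9.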

Additional observations from a re-analysis of the deposited data

Results flagged for a closer look

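Nxf3 differed between days. The log2 differences, knockout minus control, of days 1.5, 3 and 6 were -1.12, 0.91 and -0.86, so both knockout arrays of day 3 lay above their controls and both of the other days below. The difference between the days was not tested. Against the controls of days 1.5 and 6 the day 3 value was -0.17, and the controls of day 3 were themselves low, at 39.0 and 32.7.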

How the results depend on the processing

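Of the alternatives for the members' single values, 869 kept their side of the threshold, 21 lost a call and 5 gained one. In 1 the sign changed with a call before or after. A change of sign without any call was counted among the 869. On day 6 the same 6 of 8 members were called under each alternative and each left-out array, apart from leaving out the dimmest 40% of genes, where 4 were measured and all 4 called. Replicate numbers did not pair arrays: same-day replicate differences correlated with -0.004, -0.057 and 0.028, and the highest of all pairs of groups was 0.173, between the controls of days 1.5 and 3. With the replicate block, members called were 2, 3 and 6 of 8 on days 1.5, 3 and 6, with Taf7l lost on day 3. Beside them, 1657, 4111 and 5821 of 18194 genes were called.

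With only the 4 arrays compared, which leaves fewer degrees of freedom, day 1.5 gave 455 called genes (1803 as reported), 1 member, 0 relatives (3 as reported) and 2 other germ cell forms (6). Day 3 gave 2506 genes (4250) and 2 relatives (6). Members called in control cells went to 0 between days 1.5 and 6 and to 1 between days 3 and 6. Leaving out dim genes gave 1 of 4 members on day 1.5, beside 2490 genes, and 6 other germ cell forms on day 3 (10), beside 4886 genes. It gave 0 members between control days 1.5 and 6, and fewer genes were tested. The trend and robust prior gave 2756 genes on day 1.5, and the cause was not tested. With the controls of days 1.5 and 6 for day 3, 2 of 8 members and 2 of 11 relatives were called, beside 4637 of 18194 genes. The day 3 values of Nxf3 (-0.17), Taf7 (-0.074), Nxf1 (-0.021) and Dnmt3l (-0.33) then changed sign.

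Leaving out 1 array at a time, called genes ranged from 714 to 1946 on day 1.5, 2727 to 4070 on day 3 and 4314 to 6031 on day 6. On day 1.5, members ranged from 1 to 2, relatives from 0 to 2 and other germ cell forms from 2 to 5. On day 6, other germ cell forms ranged from 6 to 12 and repressors from 6 to 13. Members in controls of day 6 against day 1.5 ranged from 0 to 1.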
